A study of Mus musculus with 10 samples.

Results

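The genes described here are the mouse aldo-keto reductases of the Akr1b and Akr1c subfamilies. They were taken by name from the table of counts per gene, in which rows are Entrez gene numbers: Akr1b7, Akr1b3, Akr1b8 and Akr1b10 on chromosome 6, and Akr1c6, Akr1c12, Akr1c13, Akr1c14, Akr1c19 and Akr1c20 on chromosome 13. All 10 named genes were present among the 16647 listed genes, and all 10 held at least 60 counts summed over the livers, the minimum for testing, as did 13219 genes in all. MI-883, a ligand described as a CAR agonist and PXR antagonist, was given to Humanized PXR-CAR-CYP3A4/3A7 mice, in which human genes for both receptors and for the CYP3A4 and CYP3A7 enzymes stand in place of the mouse ones. All animals were males, which were 10 to 15 weeks old when a high-fat diet (HFD) began and ate it for 8 weeks before treatment. Over the next 4 weeks, 5 mice received MI-883 at 5 mg/kg by gavage 3 times a week, and 5 control mice received only the vehicle, a mixture of corn oil (90%) with DMSO and PEG300 (5% each). One liver RNA library was sequenced per mouse. Every animal carried the humanized alleles and ate the HFD, so the comparison shows the difference between compound and vehicle in this setting alone, and the table holds no mice with the mouse receptors.

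Aldo-keto reductases reduce aldehydes and ketones to alcohols, with NADPH as the usual electron donor. The Akr1b enzymes are the aldose reductase and its relatives, which act on sugars and on reactive aldehydes of lipid peroxidation such as 4-hydroxynonenal. The Akr1c enzymes are largely hydroxysteroid dehydrogenases, which interconvert ketone and alcohol groups on steroids, prostaglandins and bile acid precursors, and several are made in quantity by hepatocytes. CAR and PXR are nuclear receptors of the liver that bind drugs and steroids and regulate enzymes of their clearance. The question put to these genes was whether a rise of Akr1b7 with MI-883 was shared by the genes beside it.

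The Akr1b genes lie in one row. In RefSeq on GRCm38, the build of the counts (mm10), the 4 genes span chr6:34303930-34423137, which is 119 kb. The gaps are 36.7 kb between Akr1b3 and Akr1b8, 15.8 kb between Akr1b8 and Akr1b10, and 15.4 kb between Akr1b10 and Akr1b7. The next gene beyond Akr1b7 is Bpgm, at a distance of 53.2 kb. Akr1b7, Akr1b8 and Akr1b10 are on the plus strand and Akr1b3 is on the minus strand. The coding sequence of Akr1b7 is 89.2% identical to that of Akr1b10, 84.8% to that of Akr1b8 and 73% to that of Akr1b3, whereas its identity to the Akr1c coding sequences is between 58% and 58.9%. The 6 Akr1c genes lie at chr13:4048991-4523354.

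The 250 bases before the annotated start of the 3 Akr1b genes on the plus strand are shown because these neighbours, so close in coding sequence, differed in their response to MI-883. They are RefSeq sequences of GRCm38.p6, plus strand, 5′ to 3′, at chr6:34412112-34412361 for Akr1b7, chr6:34353896-34354145 for Akr1b8 and chr6:34383997-34384246 for Akr1b10. Capitals mark nuclear receptor half-sites, searched as AGGTCA or AGTTCA on both strands.
Akr1b7: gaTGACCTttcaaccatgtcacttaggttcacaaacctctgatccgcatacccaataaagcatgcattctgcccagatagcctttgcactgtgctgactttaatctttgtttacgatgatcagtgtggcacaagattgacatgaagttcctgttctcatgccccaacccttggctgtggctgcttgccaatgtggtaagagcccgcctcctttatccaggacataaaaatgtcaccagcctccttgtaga
Akr1b8: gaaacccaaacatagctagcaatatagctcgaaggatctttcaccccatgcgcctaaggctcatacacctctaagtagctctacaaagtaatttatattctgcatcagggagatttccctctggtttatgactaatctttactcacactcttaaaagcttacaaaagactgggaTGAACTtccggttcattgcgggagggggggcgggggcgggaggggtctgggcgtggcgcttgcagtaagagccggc
Akr1b10: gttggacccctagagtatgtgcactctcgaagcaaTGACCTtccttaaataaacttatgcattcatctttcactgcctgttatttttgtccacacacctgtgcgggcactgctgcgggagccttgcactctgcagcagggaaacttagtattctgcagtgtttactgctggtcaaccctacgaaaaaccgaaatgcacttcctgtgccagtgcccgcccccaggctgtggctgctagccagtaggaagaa
Each of the 3 stretches held 1 half-site, at 248 bases before the start in Akr1b7, 76 bases in Akr1b8 and 215 bases in Akr1b10. A half-site of this kind was found in 24.2% of 32851 mouse promoters of the same length. The arrangements known for CAR and PXR are direct repeats of such half-sites spaced by 3, 4 or 5 bases and everted repeats spaced by 6. None of the 3 stretches held such a pair. In promoters of this length the direct repeats were found in 0.0122%, 0.0244% and 0.0335%, in that order, and the everted repeat in 0.00913%. At shares this low, absence from 3 stretches says little about these genes. None of the 3 held TGACNNNGC, the core of the antioxidant response element, on either strand, which 10.2% of promoters did. The upstream sequence of Akr1b7 was 63.8% identical to that of Akr1b8 and 54.1% to that of Akr1b10 over the aligned bases. The promoter table matched 8 of the 10 genes, the others being Akr1b3 and Akr1c20. Of the Akr1c genes in it, Akr1c14 held 1 half-site, 147 bases before its listed start, and Akr1c6, Akr1c12, Akr1c13 and Akr1c19 held none. A match in this window is a description of letters and no evidence of binding.

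Total counts per liver lay between 23513665 and 36221514, with control replicate 4 the highest, and each library is from another animal. Levels are given as CPM, the count per library total scaled by the TMM factor of edgeR, and changes as the log2 fold change of MI-883 over control, where 1 is a doubling. Differences were tested with the quasi-likelihood test of edgeR, and adjusted p-values are Benjamini-Hochberg values over all 13219 tested genes with a threshold of 0.05. By this test 1.03% of tested genes changed in either direction, 0.764% were higher and 0.265% were lower. In bulk liver RNA, a change in the number of cells of a type and a change in RNA per cell cannot be told apart. The hepatocyte markers summed to between 67111 and 77483 CPM in control livers and between 59212 and 70491 CPM in MI-883 livers, and 0 of the 6 passed in edgeR or DESeq2 (1, Ttr, at an unadjusted p under 0.05), so the defining markers of liver were present.

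Akr1b7, an aldose reductase-like enzyme known from the adrenal cortex and the vas deferens that reduces 4-hydroxynonenal and the aldehyde released in steroid synthesis, was the 1 member of 10 that passed the test. It was measured at 1.84, 2.50, 0.899, 1.30 and 1.75 CPM in control replicates 1 to 5. In MI-883 replicates 1 to 5 it was measured at 15.2, 18.2, 8.85, 18.4 and 8.97 CPM. The lowest MI-883 liver therefore stood above the highest control liver, and the MI-883 livers themselves fell at about 9 CPM in replicates 3 and 5 and at 15.2 to 18.4 CPM in the others. The means were 1.66 ± 0.603 and 13.9 ± 4.75 CPM (SD, n = 5 each), a log2 fold change of 3.05 with a standard error of 0.283 and an edgeR adjusted p of 0.00011. On the linear scale this was 8.28-fold, with a 95% interval from 5.42-fold to 12.7-fold. The raw counts behind these values were 22 to 80 in control livers and 239 to 446 in MI-883 livers. The exact two-sided permutation test over livers gave p = 0.00794, the smallest that 5 against 5 allows. Relative to its mean, the spread of Akr1b7 was alike in the 2 groups, with a coefficient of variation of 36.3% in control and 34.1% in MI-883 livers.

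**Figure D1:**
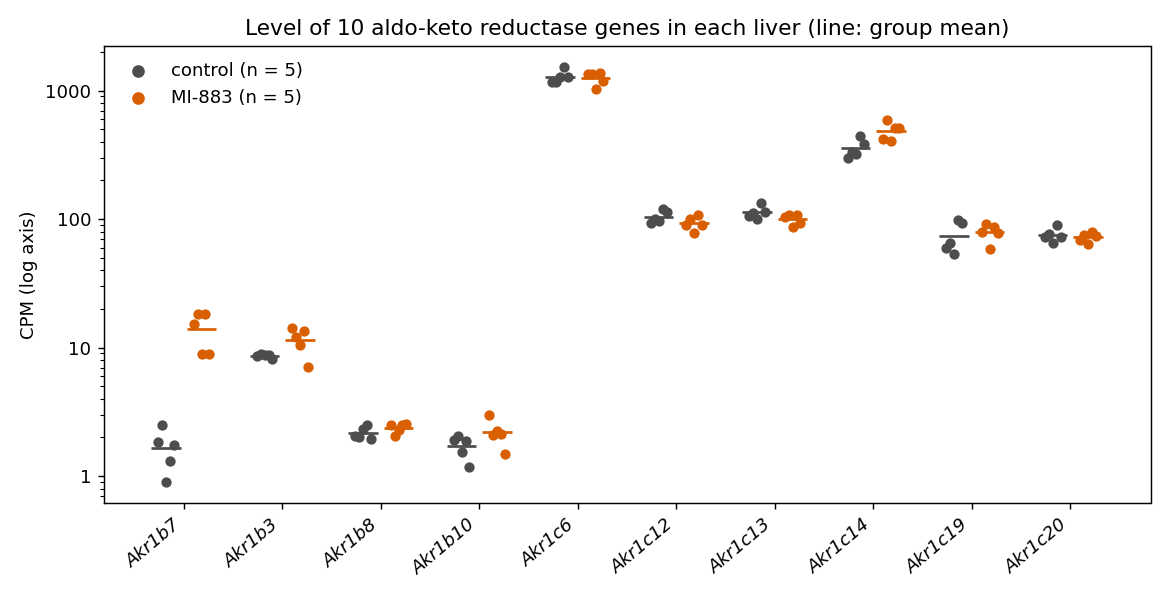
CPM of each of the 10 genes on a log axis in 5 control (grey) and 5 MI-883 (orange) livers, with a line at each group mean. Akr1b7 is the 1 gene whose groups do not overlap, with 0.899 to 2.50 CPM in control livers and 8.85 to 18.4 CPM with MI-883.

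Akr1b3, the mouse aldose reductase that makes sorbitol from glucose, did not pass the test. Its levels in control livers 1 to 5 were 8.58, 8.97, 8.75, 8.69 and 8.20 CPM. In MI-883 livers 1 to 5 they were 14.2, 12.1, 10.5, 13.6 and 7.13 CPM. The control livers were tightly grouped, 4 MI-883 livers lay above every control liver, and MI-883 replicate 5 lay below every control liver. The means were 8.64 ± 0.281 and 11.5 ± 2.82 CPM, and the log2 fold change was 0.41 with a standard error of 0.152 and a 95% interval from 0.083 to 0.74. The adjusted p was 0.222 by edgeR and 0.151 by DESeq2. The call rested on MI-883 replicate 5, since the log2 fold change was 0.54 with an edgeR adjusted p of 0.0344 without that liver, and the adjusted p lay between 0.0344 and 0.363 over the 10 fits that each left out a liver. The exact two-sided permutation p was 0.0794 with all livers. In addition, 44.9% of the 100-base stretches of the Akr1b3 transcripts also occur in other annotated genes, the processed pseudogenes Gm6644, Gm12138 and Gm6736, so the number of its reads that could be placed uniquely is uncertain.

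Akr1b8 and Akr1b10, aldose reductase-like enzymes that reduce lipid-derived aldehydes, are the nearest relatives of Akr1b7 in sequence and lie between it and Akr1b3. Akr1b8 was measured at 2.04, 2.00, 2.33, 2.49 and 1.93 CPM in the control livers. The MI-883 livers gave 2.50, 2.04, 2.29, 2.48 and 2.55 CPM for Akr1b8. The groups overlapped, and the log2 fold change was 0.14 with a 95% interval from -0.17 to 0.44 and an edgeR adjusted p of 0.674. Akr1b10 was measured at 1.93, 2.06, 1.55, 1.88 and 1.18 CPM in the control livers. The MI-883 livers gave 2.97, 2.08, 2.26, 2.13 and 1.49 CPM for Akr1b10. Here 4 MI-883 livers stood above every control liver, replicate 2 only narrowly, and replicate 5 lay within the control range. The log2 fold change of Akr1b10 was 0.33 with a 95% interval from -0.12 to 0.79 and an edgeR adjusted p of 0.461. These genes had 27 to 87 reads per liver. At their upper bounds, the intervals allow a 1.36-fold rise for Akr1b8, 1.72-fold for Akr1b10 and 1.67-fold for Akr1b3, all below the lower bound of 5.42-fold for Akr1b7. No 100-base stretch of the Akr1b7, Akr1b8 or Akr1b10 transcripts occurs in another annotated gene, so longer reads could be assigned to each.

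**Figure D2:**
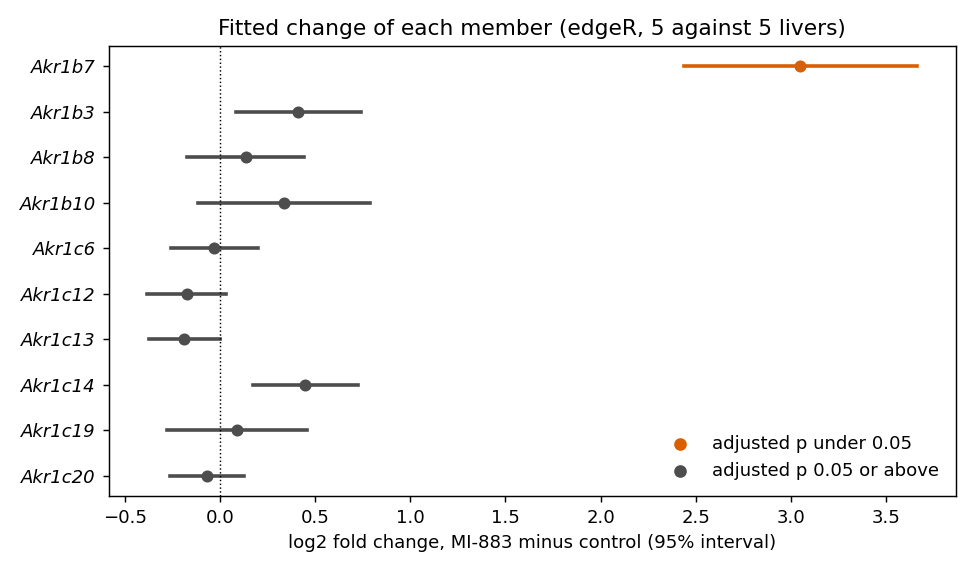
Log2 fold change of MI-883 over control for each gene (point) with its 95% interval (line), from edgeR over 5 and 5 livers, with genes past the adjusted threshold of 0.05 in orange. Akr1b7 stands at 3.05, and the other 9 points lie between -0.19 and 0.45.

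The difference between Akr1b7 and each other member was tested within livers, as the log2 ratio of the Akr1b7 count to the count of the other gene. Scaling between libraries cancels in this ratio. Against Akr1b3 the control livers gave -2.21, -1.84, -3.25, -2.72 and -2.21, so Akr1b7 had the fewer reads in each. The MI-883 livers gave 0.11, 0.58, -0.25, 0.44 and 0.33 against Akr1b3, so the counts of both genes were similar. The mean ratio moved by 2.69 on the log2 scale against Akr1b3, by 2.92 against Akr1b8 and by 2.73 against Akr1b10. Against the Akr1c genes it moved by between 2.61 (Akr1c14) and 3.25 (Akr1c13). In all 9 pairs the 5 MI-883 livers lay above the 5 control livers, with an exact two-sided permutation p of 0.00794 in each, and 0.00794 after Benjamini-Hochberg adjustment over the 9 pairs. Since Akr1b7 is in every pair, the 9 tests are not independent. The rise of Akr1b7 was known beforehand and the other members moved little, so these tests restate those changes and are no separate support. All of them also passed with any single liver left out.

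**Figure D3:**
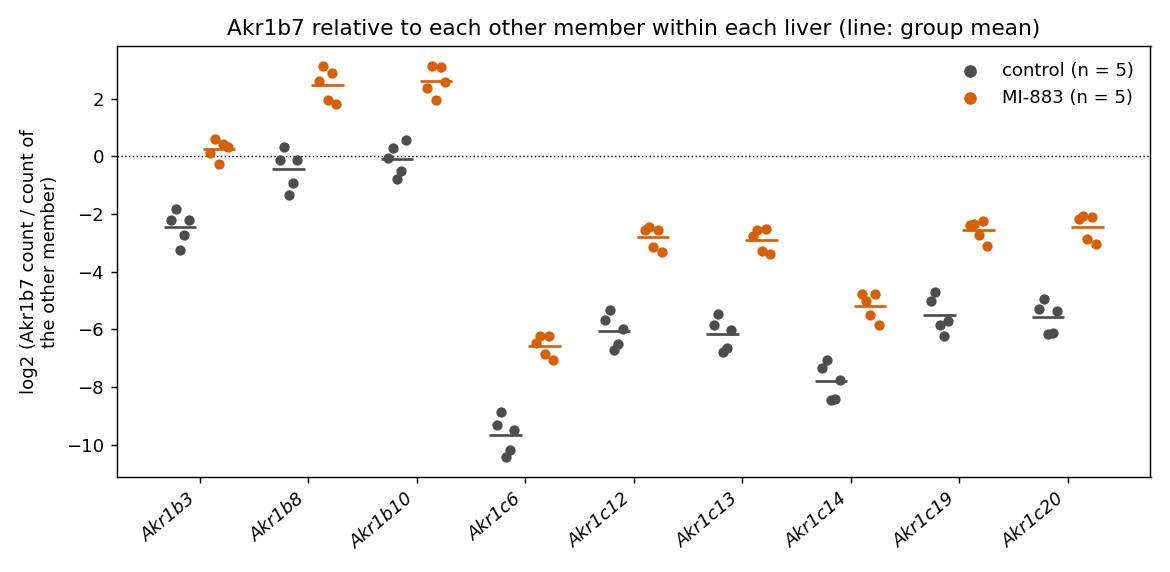
Log2 ratio of the Akr1b7 count to the count of each other gene in each control (grey) and MI-883 (orange) liver, with a line at each group mean. In each of the 9 pairs the groups do not overlap, and the means differ by 2.61 to 3.25.

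Levels of different genes were compared per kb of exon, over the joined exons of protein-coding transcripts. In control livers the Akr1b genes were ordered Akr1b3 at 5.93 ± 0.193, Akr1b8 at 1.59 ± 0.177, Akr1b7 at 1.30 ± 0.471 and Akr1b10 at 1.26 ± 0.258 CPM per kb, and the last 3 did not differ beyond their spread. In MI-883 livers Akr1b7 stood first at 10.9 ± 3.71 CPM per kb, followed by Akr1b3 at 7.90 ± 1.94, Akr1b8 at 1.75 ± 0.156 and Akr1b10 at 1.59 ± 0.387. Akr1b7 exceeded Akr1b3 on this scale in 4 of 5 MI-883 livers, the exception being replicate 3. The sum of the 4 Akr1b genes was 10.1 ± 0.698 CPM per kb in control livers and 22.1 ± 5.54 CPM per kb with MI-883. The share of Akr1b7 in that sum was 12.7 ± 4.07% in control livers, with a range from 7.34% to 17.6%. In MI-883 livers its share was 48.3 ± 6.29%, with a range from 39.5% to 55.6%.

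**Figure D4:**
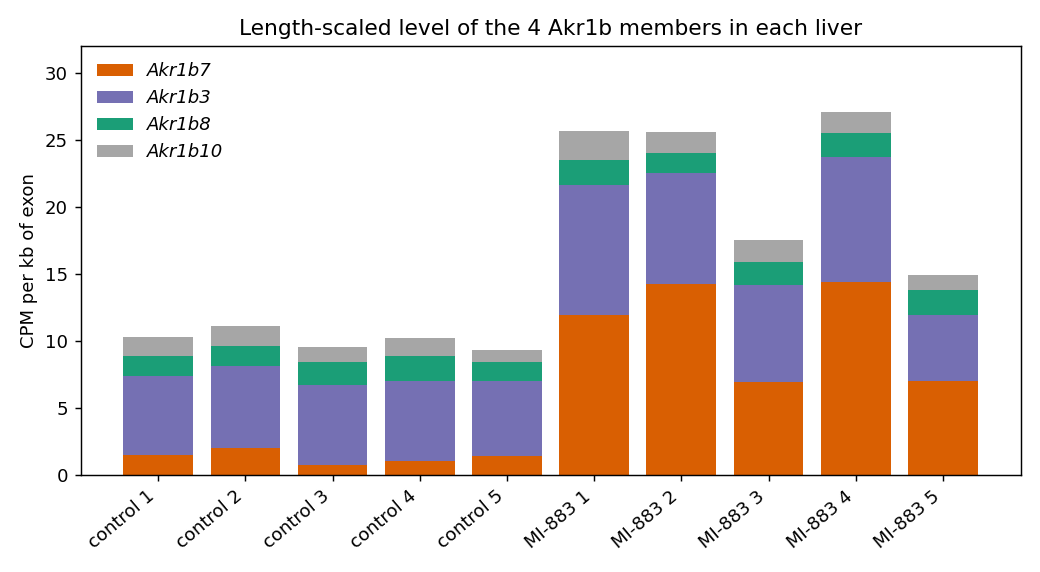
CPM per kb of exon of Akr1b7, Akr1b3, Akr1b8 and Akr1b10, stacked for each of the 5 control and 5 MI-883 livers. The sums lie between 9.29 and 11.1 in control and between 14.9 and 27.1 in MI-883 livers, and the Akr1b7 segment takes most of the added height.

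The Akr1c genes were far more abundant, and 0 of 6 passed the test in edgeR, beside 1.03% of all tested genes. At an unadjusted p under 0.05 there was 1 (Akr1c14), beside 15.6%. That gene also passed in DESeq2, beside 3.5%. The median log2 fold change of the 6 genes was -0.048, beside 0.0045 over all tested genes, with 2 positive and 4 negative values. Together they gave 1087 ± 127 CPM per kb in control livers and 1091 ± 120 CPM per kb with MI-883. The Akr1b genes were 0.928 ± 0.129% of the Akr1b and Akr1c sum in control livers and 1.97 ± 0.351% in MI-883 livers. Most of the Akr1c sum was Akr1c6, with 68.9 ± 1.37% in control and 67.2 ± 1.72% in MI-883 livers.

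Akr1c6, a 17β-hydroxysteroid dehydrogenase of mouse liver, was measured at 1169, 1174, 1267, 1534 and 1275 CPM in control livers. In MI-883 livers it was measured at 1339, 1352, 1035, 1378 and 1185 CPM. The groups overlapped widely, and the log2 fold change was -0.029 with a 95% interval from -0.26 to 0.20 and an edgeR adjusted p of 0.919. Its control replicate 4 stood apart from the other control livers. Per kb of exon it was at 749 ± 86.8 CPM in control livers, ahead of Akr1c14 at 112 ± 18.4.

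Akr1c14, a 3α-hydroxysteroid dehydrogenase, had the largest log2 fold change among the Akr1c genes. Control livers gave 298, 332, 322, 444 and 387 CPM for Akr1c14. The MI-883 livers gave 417, 592, 404, 508 and 513 CPM for Akr1c14. Of the MI-883 livers 3 stood above every control liver, while replicates 1 and 3 fell below control replicate 4. The means were 356 ± 58.7 and 487 ± 77.1 CPM, and the log2 fold change was 0.45 with a standard error of 0.129 and a 95% interval from 0.17 to 0.73. Its adjusted p was 0.129 by edgeR, which does not pass, and 0.0285 by DESeq2, which passes, as did 3.5% of all tested genes in either direction and 2.2% of them upwards. It also passed in edgeR with plain total counts in place of TMM, at an adjusted p of 0.0413, and in none of the 10 edgeR fits that each left out a liver, where the value was between 0.0888 and 0.258. The exact two-sided permutation p was 0.0317.

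Akr1c12 and Akr1c13, NAD-dependent dehydrogenases of hydroxysteroids and alcohols, are 96.2% identical in coding sequence, and 11.5% of the 100-base stretches of each occur in the other, so their counts are uncertain to that extent. Akr1c12 was measured at 94.1, 100, 96.6, 120 and 113 CPM in control livers. It was measured at 89.6, 99.3, 77.8, 108 and 89.5 CPM in MI-883 livers. Its log2 fold change was -0.17 with a 95% interval from -0.38 to 0.034 and an edgeR adjusted p of 0.405. Akr1c13 was at 106, 112, 101, 132 and 115 CPM in control livers. In MI-883 livers Akr1c13 was at 103, 108, 86.8, 107 and 93.6 CPM. Its log2 fold change was -0.19 with a 95% interval from -0.37 to 0.00066 and an edgeR adjusted p of 0.323. Both genes had lower means with MI-883, with overlapping groups.

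Akr1c20 and Akr1c19, further steroid-active members of the subfamily, showed the smallest changes after Akr1c6. Akr1c20 was between 65.5 and 90.8 CPM in control livers, with a median of 73.0, and between 64.3 and 78.8 CPM in MI-883 livers, with a median of 74.1. Its log2 fold change was -0.067 with a 95% interval from -0.26 to 0.13 and an edgeR adjusted p of 0.751. Akr1c19 was between 53.4 and 98.5 CPM in control livers, with a median of 65.6, and between 59.0 and 91.9 CPM in MI-883 livers, with a median of 79.3. Its log2 fold change was 0.089 with a 95% interval from -0.28 to 0.46 and an edgeR adjusted p of 0.832. Akr1c19 was the most variable Akr1c gene among control livers, with a coefficient of variation of 27.8%. Per kb, Akr1c13 at 89.8 ± 9.49 and Akr1c12 at 83.1 ± 8.86 CPM in control livers had overlapping ranges, though Akr1c13 was the higher in 5 of 5 livers. Akr1c14 stood above Akr1c13 in 5 of 5 control livers as well. They were followed by Akr1c20 at 40.7 ± 5.02 and Akr1c19 at 12.6 ± 3.50 CPM per kb. The last of these depends on the transcript chosen, since the shortest full coding transcript in place of the joined exons gave 59.7 CPM per kb for Akr1c19 and 56.6 for Akr1c20.

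The Akr1c genes had 2 of their 4 extreme livers in common. All 6 were highest among control livers in replicate 4, as were 23.6% of all tested genes, and all 6 were lowest among MI-883 livers in replicate 3, as were 22.1%. Both held for 7.1% of all tested genes. At the other ends the 6 genes were divided, with 3 lowest among control livers in replicate 1 and 3 in replicate 3, and 3 highest among MI-883 livers in replicate 4 and 3 in replicate 2. Of the 4 Akr1b genes, 1 was highest in control replicate 4 and 1 was lowest in MI-883 replicate 3. Control replicate 4 had the most counts of all livers, and MI-883 replicate 3 had the highest TMM factor of all livers, and the part of these properties in the pattern was not tested.

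Over the 10 genes, 1 was higher and 0 were lower by edgeR, beside 0.764% and 0.265% of all tested genes. At an unadjusted p under 0.05 there were 3 (Akr1b7, Akr1b3 and Akr1c14), beside 15.6% of all tested genes. Leaving Akr1b7 aside, 0 of 9 passed in edgeR, beside 1.03% of all tested genes. Of the 9, 2 had an unadjusted p under 0.05, beside 15.6%, and 1 passed in DESeq2, beside 3.5%. The median log2 fold change of the 9 was 0.089, with 5 positive and 4 negative values. Groups without overlap were seen for Akr1b7 alone, beside 3.98% of all tested genes in either direction and 2.05% with MI-883 higher.

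The genes around the Akr1b row were examined for the same question. Within 500 kb of it, 9 genes were listed and 8 were tested. Of these 0 passed in edgeR or DESeq2, and 0 had an unadjusted p under 0.05. Of all tested genes, 1.03% passed in edgeR, 3.5% passed in DESeq2 and 15.6% had an unadjusted p under 0.05. At these shares, 0 calls among 8 genes say little about them. The log2 fold changes of the 8 genes lay between -0.26 and 0.27, with a median of 0.055, and the lowest edgeR adjusted p was 0.423. Bpgm, the bisphosphoglycerate mutase next to Akr1b7, was at 15.5 ± 0.924 CPM in control livers and 15.8 ± 1.34 CPM with MI-883, a log2 fold change of 0.022 with a 95% interval from -0.15 to 0.19. Cald1, which encodes the actin-binding protein caldesmon, had a log2 fold change of 0.099 and an edgeR adjusted p of 0.552. Slc35b4, a nucleotide sugar transporter of the Golgi, had 0.088 and 0.648. On the log2 scale, the 3 other Akr1b genes lay between 0.14 and 0.41.

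**Figure D5:**
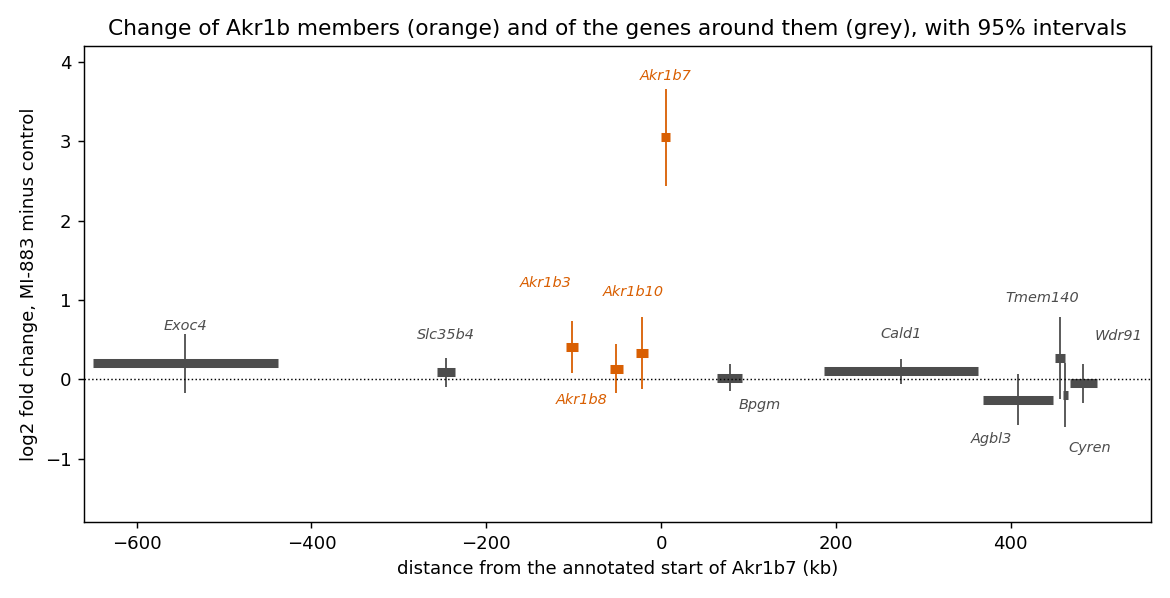
Log2 fold change of the 4 Akr1b genes (orange) and the 8 tested genes within 500 kb (grey) against distance from the annotated start of Akr1b7, where each bar spans the gene and each vertical line is the 95% interval (Exoc4 is drawn only in part at the left edge). Akr1b7 lies at 3.05, and all other genes lie between -0.26 and 0.41.

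Around the Akr1c genes, 10 other genes were listed within 500 kb and 7 were tested, of which 0 passed in edgeR or DESeq2. At an unadjusted p under 0.05 there were 3 (42.9%), beside 15.6% of all tested genes. Net1, a guanine nucleotide exchange factor, was at a log2 fold change of 0.18 with an edgeR adjusted p of 0.252. Gdi2, which recycles Rab proteins, was at -0.033 with 0.842. The highest value in that window was for Akr1c21, a 17α-hydroxysteroid dehydrogenase of kidney, but with 3 to 40 counts per liver, at 0.170 and 0.552 CPM, it had a 95% interval from 0.20 to 3.15. Its mean with MI-883 rested on replicate 2, at 1.77 CPM, while the other 4 MI-883 livers were at 0.171 to 0.348 CPM, and without that liver it fell below the minimum for testing.

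Aldo-keto reductases outside the 2 subfamilies under study, with further Akr1c genes, held no gene past the test. Of 10 on the list, 9 were in the table and tested, and 0 passed in edgeR or DESeq2. At an unadjusted p under 0.05 there were 2 (22.2%, Akr1c21 and Akr1e1), beside 15.6% of all tested genes. Both are also among the 3 genes counted around the Akr1c genes, so the 2 counts are not separate. The median log2 fold change of the list was 0.016. Akr1a1, the aldehyde reductase, was at 597 ± 31.4 and 603 ± 60.1 CPM. Akr1d1, the 5β-reductase of bile acid synthesis, was at 194 ± 37.4 and 218 ± 44.5 CPM, with an edgeR adjusted p of 0.621. Akr7a5, an aflatoxin aldehyde reductase, was at 259 ± 11.9 and 240 ± 38.8 CPM. Akr1e1, which reduces anhydrofructose, was at 48.1 ± 3.95 and 42.6 ± 3.26 CPM, with an edgeR adjusted p of 0.295.

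Genes of the pathways in which these enzymes work were read the same way. Over all tested genes, 15.6% had an unadjusted p under 0.05, 3.5% passed in DESeq2 and 3.98% had groups without overlap. Of 9 polyol and fructose pathway genes, all tested, 0 passed in edgeR, 1 had an unadjusted p under 0.05 and 1 passed in DESeq2, and the median log2 fold change was 0.026. Sord, which oxidizes the sorbitol made by Akr1b3, was at 2043 ± 97.8 CPM in control livers and 2081 ± 199 CPM with MI-883. Khk, the kinase of fructose, had a log2 fold change of 0.026.

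Of 10 genes that handle 4-hydroxynonenal, 9 were tested, 0 passed in edgeR, 1 had an unadjusted p under 0.05 and 1 passed in DESeq2, with a median log2 fold change of 0.14. That gene was Aldh1a1, a cytosolic aldehyde and retinal dehydrogenase, at 2586 ± 247 CPM in control livers and 3808 ± 648 CPM with MI-883. Its groups did not overlap, as in 3.98% of all tested genes, and its log2 fold change was 0.56 with a standard error of 0.123. Its adjusted p was 0.0514 in edgeR, just above the threshold, and 0.00033 in DESeq2. It passed in edgeR with 1 surrogate variable, an estimated hidden covariate, in the model (adjusted p 0.0192), and under some other settings. Of the 10 fits that each left out a liver it passed in 2, without MI-883 replicate 1 (0.0363) and without MI-883 replicate 3 (0.0442). In the other fits of that kind its edgeR adjusted p reached 0.126. Aldh2, the mitochondrial aldehyde dehydrogenase, was at 1907 ± 215 and 1912 ± 233 CPM.

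Of 10 genes that supply NADPH, all tested, 0 passed in edgeR. At an unadjusted p under 0.05 there were 4 (40%), beside 15.6% of all tested genes, and 2 passed in DESeq2, beside 3.5%. Their values were positive in 9 of 10, with a median log2 fold change of 0.21 beside 0.0045 over all tested genes. The genes called by DESeq2 were Nadk, the NAD kinase, at a log2 fold change of 0.24 (adjusted p 0.106 in edgeR and 0.00209 in DESeq2), and Tkt, the transketolase, at 0.29 (0.156 and 0.0484). Tkt also passed in edgeR without control replicate 1, at an adjusted p of 0.0451, and with 1 surrogate variable, at 0.0393. That was the 1 pass of Tkt among the 10 fits that each left out a liver, where its edgeR adjusted p reached 0.29. Nadk passed in 0 of those 10 fits. The groups of Nadk did not overlap, as in 3.98% of all tested genes.

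Of 16 short-chain carbonyl and quinone reductases, which share substrates with the aldo-keto reductases, 15 were tested and 0 passed in edgeR or DESeq2. At an unadjusted p under 0.05 there were 7 (46.7%), beside 15.6% of all tested genes. Of these, Cbr1, Cbr3, Nqo1 and Ptgr1 were higher with MI-883, and Cbr4, Dhrs1 and Hsd11b1 were lower. Nqo1, at a log2 fold change of 0.60, had the lowest edgeR adjusted p of the list, 0.192. The median log2 fold change of the list was -0.042. Hsd11b1, which reactivates glucocorticoids, was at 458 ± 62.8 and 368 ± 59.2 CPM, with an edgeR adjusted p of 0.236. Dhrs1, a further dehydrogenase, was at 171 ± 6.50 and 152 ± 9.88 CPM, with an edgeR adjusted p of 0.237. The groups of Dhrs1 did not overlap, as in 3.98% of all tested genes. Cbr3, a carbonyl reductase at 3.03 ± 2.89 and 8.16 ± 3.22 CPM, had an edgeR adjusted p of 0.204. It passed without control replicate 1 and with 1 surrogate variable, and in no other fit.

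Of 15 genes of steroid and bile acid reduction and side chain metabolism, all tested, 0 passed in edgeR, with a median log2 fold change of -0.10. At an unadjusted p under 0.05 there were 4 (26.7%), beside 15.6% of all tested genes, and 2 passed in DESeq2, beside 3.5%. The genes called by DESeq2 were Scp2, the sterol carrier protein and thiolase of bile acid side chains, at -0.18 (adjusted p 0.291 in edgeR and 0.0049 in DESeq2), and Hsd17b2, which inactivates estradiol and testosterone, at 0.34 (0.0948 and 0.0168). Hsd17b2 also passed in edgeR with total counts (adjusted p 0.0208) and with 1 surrogate variable (0.0189). It passed in none of the 10 edgeR fits that each left out a liver, where the adjusted p was between 0.0655 and 0.197. The groups of Scp2 did not overlap, as in 3.98% of all tested genes.

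The 5 genes whose levels over the 10 livers were most like those of Akr1b7 were found by the root mean square difference of centred log2 CPM among 11613 genes of at least 1 CPM on average. They were Gadd45b, a stress-induced regulator of growth and DNA repair (0.40), Cyp2c55, a cytochrome P450 known to respond to CAR and PXR (0.52), Abcc4, a transporter that exports conjugates (0.60), Gstm3, a glutathione transferase (0.62), and Fndc5, the precursor of irisin (0.67). All 5 passed the edgeR test, with log2 fold changes between 2.44 and 3.24. The other members lay at 1.40 to 1.68, Akr1c14 being the nearest at rank 306 and Akr1b3 next at rank 328. Gadd45b was at 2.63, 5.25, 2.21, 2.95 and 3.55 CPM in control livers 1 to 5. In MI-883 livers 1 to 5 it was at 14.4, 30.0, 11.2, 25.3 and 16.1 CPM. As with Akr1b7, replicate 2 was highest and replicate 3 lowest among control livers, and replicates 2 and 4 were high and replicate 3 low among MI-883 livers. The measure of likeness uses the difference between the groups as well as the variation within them. The 5 genes were picked by it, so their likeness to Akr1b7 over the livers is no separate finding.

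Akr1b7 is a known product of the adrenal cortex, so markers of adrenal tissue were read beside its rise. Of 5 such markers 3 were in the table and 2 were tested. Cyp11a1, the enzyme that begins steroid synthesis, had at most 1 count in any liver. Star, which delivers cholesterol to that enzyme, was at 3.04 and 2.69 CPM. Cyp21a1, the steroid 21-hydroxylase, rose from 2.99 CPM in control livers to 7.10 CPM with MI-883, which is 1.26 on the log2 scale with an edgeR adjusted p of 0.0225. Its edgeR adjusted p was 0.0689 without control replicate 2, 0.0688 without control replicate 4, 0.0674 without control replicate 5 and 0.0732 without MI-883 replicate 5. It passed in the other 6 of the 10 fits that each left out a liver, at adjusted p-values down to 0.0114. It also passed in the 8 fits of other settings, DESeq2 among them, at adjusted p-values from 3.2e-05 to 0.0274. The summed level of the list was 5.12 to 7.89 CPM in control livers and 6.68 to 13.3 CPM with MI-883. Of 6 intestinal epithelium markers, 5 were in the table and 3 were at or under 3 counts in every liver, with sums of 0.0877 to 0.50 CPM in control livers and 0.106 to 0.666 CPM with MI-883. Lists of Kupffer cell and leukocyte, stellate cell, endothelial and cholangiocyte markers and of exocrine pancreas held 0 genes past the edgeR test. At an unadjusted p under 0.05 there were 1, 2, 2, 1 and 0 genes in these lists, in that order, beside 15.6% of all tested genes. In DESeq2, 1 endothelial gene (Cdh5) passed. Of 5 exocrine pancreas markers, 2 were in the table and only 1 was tested. The cholangiocyte sums reached 117 CPM among control livers and 190 CPM among MI-883 livers, and the part of such cells in the level of Akr1b7 was not tested.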

How the data were processed

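Liver RNA of 5 control and 5 MI-883 male mice was sequenced. The submitters' processing notes name fastp 0.23.0, featureCounts and mm10, and the study's methods name STAR as the aligner; the annotation and strand setting are not given in the sources used here. The values the authors deposited are raw counts per Entrez gene, without normalization, and 16644 of 16647 were matched to RefSeq symbols. Genes with at least 60 summed counts (13219) were tested with edgeR 4.0.16 in R 4.3.3 (TMM, quasi-likelihood, condition as the sole term), and DESeq2 1.42.0 (Wald test, no independent filtering) was the alternative. Ratios used a prior count of 0.5. A count of 3, the floor, is 0.0838 to 0.133 CPM per liver and covers counting error only. Exon lengths and shared 100-base stretches came from GENCODE M21 (GRCm38), positions and promoters from RefSeq. Scripts were tested on simulated data. The members, the lists and the tests were chosen with earlier results of these data known.

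All members were named, and list genes were taken from those past the threshold or otherwise from the 4 most abundant, but not all 4 were described. In the NADPH list Idh1, H6pd and Me1 were more abundant than Nadk and were left out. The same holds for Dhrs4, more abundant than Dhrs1, and for Hsd17b4, Hsd17b13 and Hsd3b7, the most abundant of the steroid list after Scp2. None of those left out here passed in edgeR or DESeq2. Hsd17b2, Tkt, Pgd, Ptgr1, Cbr1, Cbr3, Cbr4, Nqo1, Cdh5, Ttr, Akr1c21 and Akr1e1 were named after their values were seen. Alternatives were other scalings, filters, a surrogate variable (sva 3.50.0, added after seeing the data), a replicate block and leaving out each liver. Some genes of the polyol list are not reported here by name.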

Additional observations from a re-analysis of the deposited data

Results flagged for a closer look

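Akr1c6 stood apart in 1 liver: control replicate 4 was at 1534 CPM and the next control liver at 1275 CPM, a gap that takes 0.71 of the range of the 5 control livers, just past Dixon's critical value. This was the single such value among 60 groups of 5 livers examined, where chance gives about 3. Without that liver the log2 fold change of Akr1c6 was 0.043 in place of -0.029, and it passed the test in neither case.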

How the results depend on the processing

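Akr1b7 passed in every fit that tested it, with log2 fold changes of 2.91 to 3.25 when single livers were left out and 3.01 to 3.07 otherwise. A minimum of 60 counts in every liver drops it, with Akr1b8 and Akr1b10, which leaves 0 of 7 members called. DESeq2 and total counts each called 2 members, the second being Akr1c14, and 1 to 2 were called with a liver left out (Akr1b3 without MI-883 replicate 5). Members with an exact permutation p under 0.05 numbered 2, and 1 to 3 with a liver left out. The ratio of Akr1b7 passed against 9 of 9 members in all settings, which restates its rise and is no separate support.

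Over all genes, 136 passed; 463 passed in DESeq2, 423 with 1 surrogate variable, 89 with the replicate block and 62 to 208 with a liver left out (208 without control replicate 1, 62 without MI-883 replicate 5). Lists that held 0 calls held, in DESeq2, 1 (polyol), 1 (4-hydroxynonenal), 2 (steroid) and 2 (NADPH). With total counts, 1 was called in the 4-hydroxynonenal and 1 in the steroid list. With 60 counts in every liver, filterByExpr or the replicate block, 1 (Aldh1a1) was called. With 1 surrogate variable, 2 were called in the short-chain (Cbr3 and Ptgr1), 1 in the 4-hydroxynonenal (Aldh1a1), 1 in the steroid (Hsd17b2) and 2 in the NADPH list (Pgd and Tkt). With a liver left out, 0 to 1 were called in the 4-hydroxynonenal, short-chain and NADPH lists. Numbers did not pair the livers: deviations of same-numbered livers correlated at -0.117 to 0.355, and the replicate block changed no call of a member.

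Values near 0 changed sign. With total counts, Akr1c6 was at 0.012 and Gdi2 at 0.0084, and with the surrogate variable Aldh2 was at -0.0093. With livers left out, the ranges were -0.064 to 0.043 for Akr1c6, -0.0071 to 0.21 for Akr1c19, -0.11 to 0.0074 for Akr1c20, -0.023 to 0.062 for Akr1a1, -0.011 to 0.068 for Bpgm, -0.024 to 0.069 for Sord, -0.072 to 0.11 for Khk and -0.061 to 0.046 for Aldh2. None of these passed in any fit. The cause was not tested for any of these shifts. Rises of Akr1b8 and Akr1b10 within their intervals remain possible.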
